A study of Mus musculus with 7 samples.

Results

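The miR-466, miR-467, miR-669 and miR-297 families are mouse microRNAs (miRNAs) that mostly come from one large cluster of hairpins in an intron of Sfmbt2. Every line of the count table whose miRNA name starts with one of these family names, followed by a letter, a hyphen or the end of the name, was taken. That gave 80 of 1978 mature miRNA names, on 157 of 2128 lines, with 31 names in miR-466, 13 in miR-467, 30 in miR-669 and 6 in miR-297. The RNA came from splenic CD8+ T cells of gBT-I mice, neonatal or adult. These mice carry a transgenic T cell receptor for a herpes simplex virus peptide, so the controls share it too. The cells were enriched on beads and then sorted by CD44, an activation and memory marker, and CD122, a chain of the receptor for interleukin-2 and interleukin-15. CD44hi CD122hi cells, called virtual memory (VM), resemble memory cells although they have not met their antigen. The true naive (TN) cells were CD44lo CD122lo. Adult VM, adult TN and neonatal VM cells had 2 libraries each and neonatal TN cells 1, which therefore has no SD. Ages in days were not labelled, and nothing says that replicates are separate animals, so the spread behind each p-value is that of these libraries and may be technical.

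MiRNAs are cut from hairpin precursors, and one arm of the hairpin (5p or 3p) is loaded into an Argonaute protein, where bases 2 to 8, the seed, select the mRNAs to be repressed. Sfmbt2 encodes a Polycomb group protein. It is imprinted in mouse extraembryonic tissue, where the paternal allele is expressed, and its miRNA cluster, which arose by repeated duplication in rodents, is best known from placenta and early embryonic cells. Target genes were not measured here, and no function in T cells is assigned to single members.

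Of the 82 precursors listed, 81 were matched to a gene by name, and 71 lay inside Sfmbt2 on its strand (GRCm38, chr2:10370510-10595253, ENSMUSG00000061186). All 71 fell in 1 intron (chr2:10461473-10523944), the intron 10 of an annotated transcript, and spanned 51.6 kb, and 10 precursors lay elsewhere in the genome. Of the 80 names, 66 had every precursor in Sfmbt2, 3 had some, 9 had none, and the 2 arms of miR-466a were unmatched. Many copies are near-identical, and how reads matching several copies were counted was not given in the sources used here. Within 0.02 of a whole number lay 18.5% of the nonzero values of these families, against 83.3% of those of all other lines. In all, 18 names in 8 sets had a line identical to that of another name in every library, such as miR-669a-3p and miR-669o-3p. Values of single names are uncertain for that reason, and sums per name and per family are both given.

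Mature sequences from RefSeq (GRCm38.p6) were matched for 8 of the 80 names, all from hairpins outside Sfmbt2. No sequence was matched for a tested member, so the repeat-like letters are shown for these 8 only. They are written 5′ to 3′ with the seed in capitals.
miR-466i-3p (chr13:17747552-17747573, plus strand): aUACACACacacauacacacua
miR-466q (chr3:28419988-28420007, plus strand): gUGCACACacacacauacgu
miR-467f (chr11:69635419-69635439, minus strand): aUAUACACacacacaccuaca
miR-467g (chr5:34732872-34732892, minus strand): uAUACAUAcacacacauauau
miR-467h (chr9:115381898-115381919, plus strand): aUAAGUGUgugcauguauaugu
miR-466j (chr10:60960802-60960824, plus strand): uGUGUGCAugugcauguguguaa
miR-466k (chr3:85467396-85467418, plus strand): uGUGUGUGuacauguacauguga
miR-669n (chr3:115979905-115979924, plus strand): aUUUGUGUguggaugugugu
Each of the 8 holds the run ACACAC (4 names) or GUGUGU (4 names), which are reverse complements of each other, searched on the printed strand only. Among 1671 other mature miRNAs in the same table, 20 (1.20%) hold either run. The 8 seeds all differ. The seed of miR-467h is shared with miR-668-5p, which was too low to be tested. These outside copies contributed little: the 9 names with no precursor in Sfmbt2 summed to 10.7 and 6.24 CPM in adult TN and at most 4.53 in any other library. Levels here and below are counts relative to library size, in the usual CPM, after scaling with the TMM factors of edgeR.

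Across the cluster, levels were highest in adult TN cells and lowest in neonatal VM cells. Summed over all 80 names, the 4 families stood at 1965 and 2046 CPM in the adult TN libraries, 1087 and 748 in the adult VM, 601 in the neonatal TN and 358 and 236 in the neonatal VM libraries. That was 0.177 and 0.160% of all counts in adult TN against 0.0459 and 0.0300% in neonatal VM. The sum in adult TN was 2.19 times that in adult VM, and the neonatal TN library stood 2.02 times above neonatal VM. Adult TN stood 3.34 times above neonatal TN, and adult VM 3.09 times above neonatal VM. No libraries of different groups overlapped in this sum. In these bulk libraries, fewer cells with the miRNAs and less of the miRNAs per cell cannot be told apart.

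The miR-467 family was the most abundant of the 4, at 1223 ± 10.8 CPM in the adult TN libraries, 578 ± 146 in adult VM and 149 ± 27.6 in neonatal VM (mean ± SD, n = 2 each), with 319 in the neonatal TN library. MiR-669 followed, at 455 and 479 CPM in the adult TN libraries, 252 and 146 in the adult VM, 170.2 in the neonatal TN and 86.6 and 52.4 in the neonatal VM libraries. MiR-466 stood at 283 and 325 CPM in the adult TN libraries, 147 and 117 in the adult VM, 106 in the neonatal TN and 100.3 and 52.0 in the neonatal VM libraries. For miR-466 the neonatal TN library lay just above the higher neonatal VM library, by less than those 2 differed from each other. MiR-297 was low throughout, at 10.8 and 11.1 CPM in the adult TN libraries, 6.84 and 9.43 in the adult VM, 5.60 in the neonatal TN and 2.47 and 2.09 in the neonatal VM libraries. Its most abundant name, miR-297a-5p, stood at 7.02 and 5.56 CPM in the adult TN libraries, 3.62 and 2.77 in the adult VM, 4.36 in the neonatal TN and 1.48 and 1.05 in the neonatal VM libraries, and its neonatal libraries held 3 to 14 counts. In miR-467 no groups overlapped, in the order adult TN, adult VM, neonatal TN and neonatal VM, although neonatal TN rests on 1 library. In miR-669 the neonatal TN library lay between the 2 adult VM libraries, so those groups did not differ beyond their spread.

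**Figure D1:**
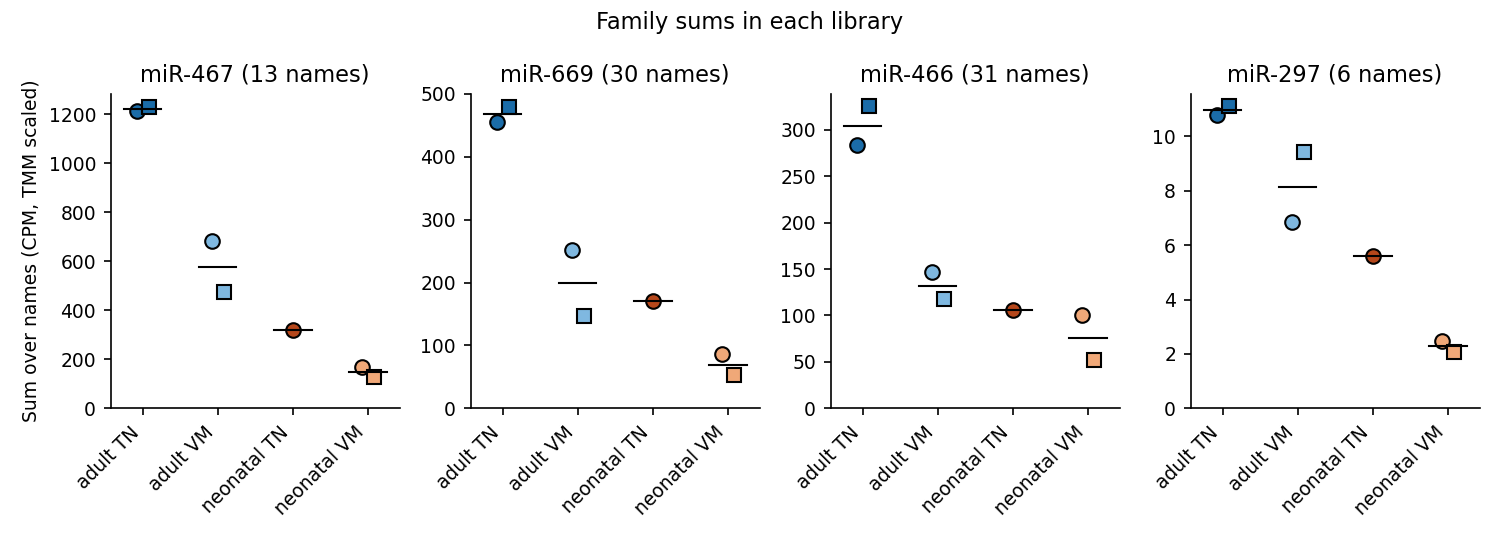
Summed CPM (TMM scaled, linear axes from 0) of each family in each library, with circles for replicate 1, squares for replicate 2 and a bar at the group mean. Adult TN is highest in all 4 panels, for example 1215 and 1230.4 CPM for miR-467, and neonatal VM is lowest, at 168 and 129.

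Of the 80 names, 11 were listed at 0 in every library, where a count of 0 allows up to 3 counts, or 0.784 to 1.62 CPM depending on the library. Another 48 were above 0 but too low for a test, which required at least 10 CPM by library total in at least 2 libraries. The 21 tested names were 7 of miR-466, 6 of miR-467 and 8 of miR-669, and all 21 had every precursor inside Sfmbt2. No miR-297 name was tested. The most abundant untested name was miR-466h-5p, at 10.3 and 15.4 CPM in adult TN and 7.65 and 4.15 in adult VM libraries. It stood at 7.78 CPM in the neonatal TN library, above both adult VM values, and at 6.92 and 2.61 in neonatal VM. Of the 21, 7 reached 10 CPM by library total in adult libraries alone, so they had to be higher in adults. For 6 of these it was adult TN alone. The counts below describe the 21 and give no support of their own. The 15 with a mean of at least 10 CPM over all 7 libraries are also given apart, among them 1 of those 7, miR-466d-3p.

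Library totals ran from 1577031 to 3278451 counts, so that 10 CPM corresponded to 18.5 to 38.3 counts after scaling. The T lymphocyte markers (6 miRNAs such as miR-150-5p and miR-142a-5p) summed to 341933 to 587131 CPM in adult and 163173 to 283283 in neonatal libraries. Erythroid markers (5) summed to 243 to 593 in adult and 156 to 446 in neonatal libraries, and myeloid and progenitor markers (5) to 77.2 to 208 and 88.4 to 140.4. Stromal and muscle markers (10, of which 3 were at 0 in every library) were higher in neonatal libraries, at 60.6 to 98.3 CPM against 15.6 to 50.1. By subset, the T lymphocyte markers stood at 163173 to 378884 CPM in VM and 283283 to 587131 in TN libraries. Erythroid markers stood at 156 to 593 in VM and 243 to 446 in TN libraries, the myeloid and progenitor markers at 109 to 208 and 77.2 to 133, and the stromal and muscle markers at 27.4 to 71.2 and 15.6 to 98.3. The part of these cell types in the results was not tested.

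The first comparison asked how neonatal and adult cells differ, over both subsets. In neonatal cells 17 of the 21 tested members fell and none rose (adjusted p at most 0.05, quasi-likelihood test of edgeR), where 27.4% of all 288 tested miRNAs fell and 26.4% rose. Among all tested miRNAs 76 rose and 79 fell, or 119 and 53 when scaled by library totals alone, where 13 members fell and none rose. Of the 15 members with a mean of at least 10 CPM, 12 fell, against 27.1% of all miRNAs at that level. The median log2 fold change of the 21 was -1.48, against -0.05 for all tested miRNAs. The members that fell were all 6 of miR-467, 7 of 8 of miR-669 and 4 of 7 of miR-466. Among them, miR-669p-5p and miR-466c-3p are not measured apart from miR-669a-5p and miR-466b-3p, as given below. Counts with such names merged are in the last section.

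MiR-467d-5p, made from 1 hairpin (chr2:10507630-10507714, plus strand), was the most abundant member and fell furthest. It stood at 624 and 631 CPM in the adult TN libraries, 309.6 and 201.2 in the adult VM, 104 in the neonatal TN and 44.5 and 40.0 in the neonatal VM libraries. Every neonatal library lay below every adult library, and within each age the VM libraries lay below the TN libraries. It was 6.04-fold lower in neonatal cells (a log2 fold change of -2.60 with an SE of 0.21, edgeR adjusted p = 3.93e-05). MiR-467d-5p took 51.4 and 51.3% of the miR-467 counts in adult TN but 32.6% in neonatal TN. In adult VM the share was 45.4 and 42.4%, and in neonatal VM 26.4 and 31.0%.

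MiR-467a-5p is listed on 10 hairpins, whose lines were summed. It stood at 319 and 298 CPM in the adult TN libraries, 151 and 128 in the adult VM, 105 in the neonatal TN and 51.9 and 42.6 in the neonatal VM libraries. The neonatal libraries again lay below the adult ones without overlap, and the fall was 2.95-fold (a log2 fold change of -1.56 with an SE of 0.19, edgeR adjusted p = 2.60e-04). MiR-467e-5p (chr2:10505721-10505807, plus strand) stood at 81.5 and 92.9 CPM in the adult TN libraries, 68.4 and 53.9 in the adult VM, 20.2 in the neonatal TN and 16.3 and 12.02 in the neonatal VM libraries. It fell 4.33-fold (a log2 fold change of -2.12 with an SE of 0.24, edgeR adjusted p = 1.83e-04), and its highest neonatal value was under its lowest adult value. MiR-467b-5p, from 1 hairpin (chr2:10481248-10481320, plus strand), stood at 35.1 and 33.0 CPM in the adult TN libraries, 16.9 and 13.5 in the adult VM, 12.1 in the neonatal TN and 6.43 and 4.70 in the neonatal VM libraries, and neonatal libraries lay below adult ones. On the log2 scale miR-467b-5p fell by 1.48, miR-467a-3p by 1.59 and miR-467c-5p by 1.19. For miR-467c-5p, adult VM replicate 2 (42.9 CPM) lay below the neonatal TN library (66.0). It no longer passed without adult VM replicate 1, without neonatal VM replicate 2 or under library totals, with an edgeR adjusted p of up to 0.0915.

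In the miR-669 family, miR-669a-3p and miR-669d-5p fell furthest. MiR-669a-3p, listed on 11 hairpins, stood at 134 and 113 CPM in the adult TN libraries, 71.2 and 68.1 in the adult VM, 15.9 in the neonatal TN and 22.7 and 13.6 in the neonatal VM libraries. Neonatal and adult libraries did not overlap (a log2 fold change of -2.34 with an SE of 0.32, edgeR adjusted p = 4.20e-04). MiR-669d-5p was low, at 23.2 and 13.3 CPM in the adult TN libraries, 7.25 and 5.53 in the adult VM, 3.11 in the neonatal TN and 1.98 and 0.523 in the neonatal VM libraries, which is 2 to 10 counts in the neonatal libraries (a log2 fold change of -2.52 with an SE of 0.46, edgeR adjusted p = 0.00168). The 5p arm of miR-669a, on 12 hairpins, stood at 140.3 and 172 CPM in the adult TN libraries, 89.8 and 32.5 in the adult VM, 66.3 in the neonatal TN and 25.2 and 14.9 in the neonatal VM libraries. Here adult VM replicate 2 lay below the neonatal TN library, so the ages overlapped (a log2 fold change of -1.46 with an SE of 0.38, edgeR adjusted p = 0.0115). MiR-669l-5p (-1.83), miR-669p-5p (-1.39), miR-669f-3p (-1.21) and miR-669o-5p (-0.97), as log2 fold changes, also passed, but none of them without adult VM replicate 1 or without neonatal VM replicate 2. MiR-669p-5p stood in a fixed proportion to miR-669a-5p in every library. In adult VM replicate 1 they took 5.93 and 35.6% of the miR-669 counts, and in replicate 2 3.71 and 22.3%. They are the same measurement, so the calls that only miR-669p-5p lost are not those of a separate miRNA. MiR-669c-5p did not pass (-0.60, SE 0.47, edgeR adjusted p = 0.305).

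The miR-466 members that fell were all 3p arms, but of the 7 tested names 5 were 3p arms, 1 was a 5p arm and 1 named no arm. MiR-466d-3p (chr2:10511967-10512062, plus strand) stood at 28.6 and 33.4 CPM in the adult TN libraries, 13.7 and 28.7 in the adult VM, 3.42 in the neonatal TN and 5.93 and 6.79 in the neonatal VM libraries (a log2 fold change of -2.23 with an SE of 0.42, edgeR adjusted p = 0.00216). The neonatal libraries held 11 to 26 counts of it and lay below all adult ones. MiR-466h-3p (-2.01), miR-466c-3p (-1.52) and miR-466b-3p (-1.48) fell too, as log2 fold changes. MiR-466c-3p and miR-466b-3p stood in a fixed proportion in every library and are the same measurement. In adult VM replicate 1 they took 6.01 and 16.0% of the miR-466 counts, and in replicate 2 6.64 and 17.7%. MiR-466b-3p, listed on 8 hairpins, stood at 37.2 and 47.9 CPM in the adult TN libraries, 23.3 and 20.7 in the adult VM, 12.8 in the neonatal TN and 12.9 and 5.75 in the neonatal VM libraries. For it too the neonatal libraries lay below the adult ones. MiR-466g, a name with no arm, was the most abundant of its family at 72.9 and 92.0 CPM in the adult TN libraries, 41.1 and 11.1 in the adult VM, 38.6 in the neonatal TN and 31.6 and 16.2 in the neonatal VM libraries. It did not pass (-0.53, SE 0.48, edgeR adjusted p = 0.379), and its lowest value of all was adult VM replicate 2. MiR-466f-3p (-0.62, edgeR adjusted p = 0.309) and miR-466c-5p (-0.95, edgeR adjusted p = 0.108) did not pass either.

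**Figure D2:**
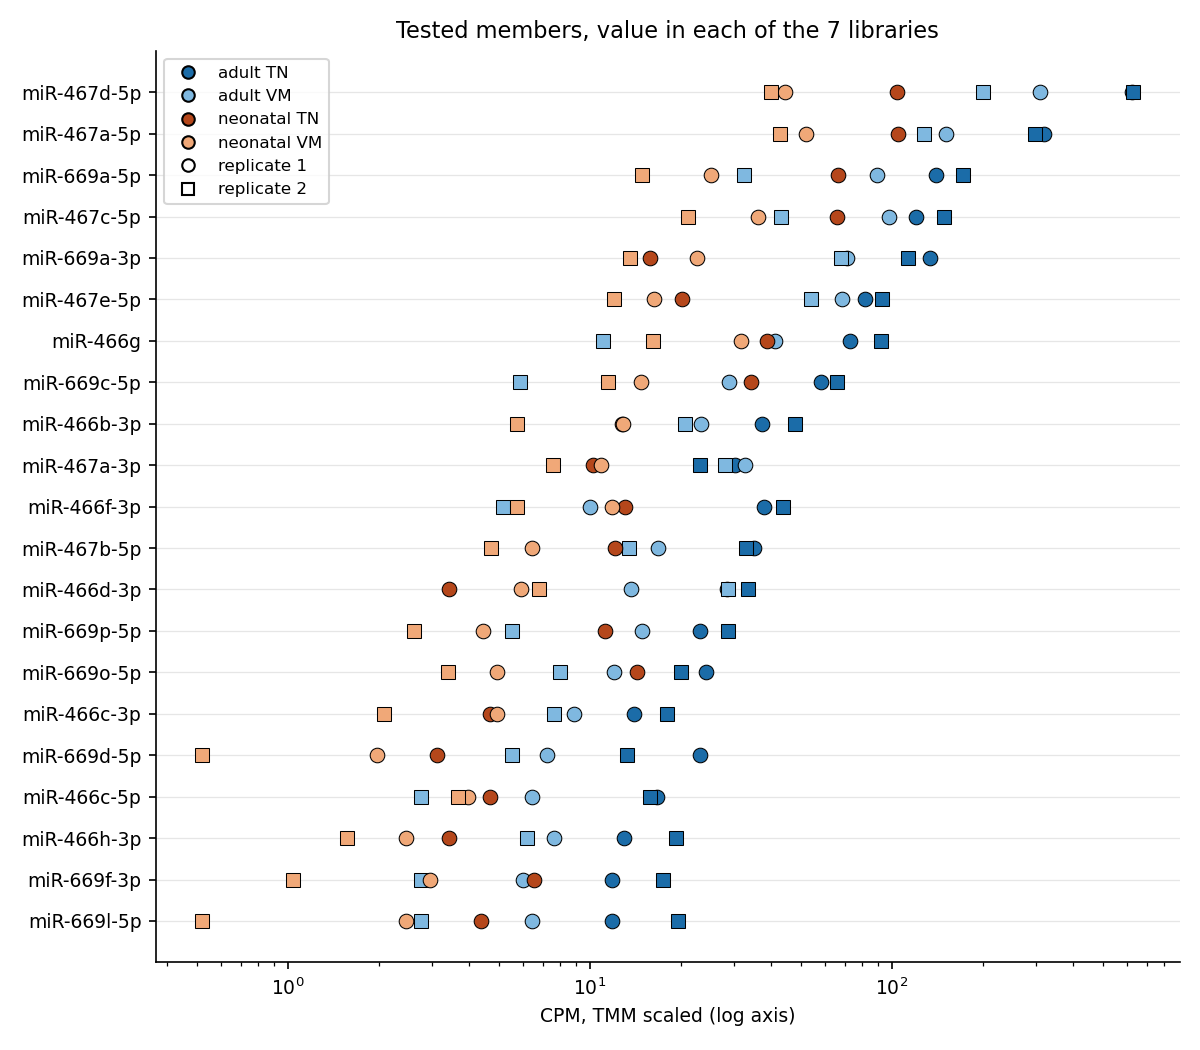
CPM (TMM scaled, log axis) of the 21 tested members in the 7 libraries, ordered by mean, with colours for the groups and shapes for the replicates. Adult TN libraries sit at the right of most rows and neonatal VM at the left; for miR-467d-5p they run from 40.0 to 631 CPM.

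Age was also tested within each subset. In TN cells 1 neonatal library was set against 2 adult ones, so the spread comes from the other groups and the single library is assumed to vary like them. There 14 of the 21 members fell and none rose, against 21.5% of all tested miRNAs that fell. In VM cells 15 fell and none rose, against 30.9%. A total of 11 members fell in both subsets, against 17.7% of all tested miRNAs. These comparisons use separate libraries but come from the same fit with a shared spread, so they are not independent tests. MiR-467d-5p changed by -2.59 (SE 0.32) in TN and -2.60 (SE 0.25) in VM cells on the log2 scale, and miR-467e-5p by -2.11 (SE 0.39) and -2.13 (SE 0.31). The age change of miR-669a-3p was -2.96 (SE 0.42) in TN and -1.97 (SE 0.31) in VM cells.

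These counts within a subset rested on single libraries. Without adult TN replicate 1 or 2 the count in TN was 6 or 7 of 15 members then tested, where 45 or 43 of 282 miRNAs fell in all. In VM cells it was 8 of 15 without adult TN replicate 2, where 72 of 282 miRNAs fell, and 6 of 21 without neonatal VM replicate 2, where 63 of 280 fell. Without adult VM replicate 1, 91 of 285 miRNAs fell in VM cells and 79 rose. Among the members 10 fell and 2 rose, miR-466g (log2 fold change 1.06, edgeR adjusted p = 0.0311) and miR-669c-5p (1.13, edgeR adjusted p = 0.0487).

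The second comparison asked how VM cells differ from TN cells, over both ages. In VM cells 13 of the 21 members fell and none rose, against 13.9% of all tested miRNAs that fell and 10.8% that rose (edgeR quasi-likelihood test). Among all tested miRNAs 31 rose and 40 fell, or 59 and 27 under library totals and 58 and 25 under upper quartile factors, where 11 members fell and none rose in either. Among the 15 members with a mean of at least 10 CPM, 9 fell, against 13.2% at that level. The median log2 fold change of the 21 was -1.28, and that of all tested miRNAs 0.01. By family, 4 of 6 miR-467 members fell, 7 of 8 miR-669 members and 2 of 7 miR-466 members. Of the 21, 11 fell for age and for subset, against 6.94% of all tested miRNAs. For age but not for subset 6 fell, against 20.5%, and for subset but not for age 2 fell (miR-669c-5p and miR-466f-3p), against 6.94%. MiR-466g and miR-466c-5p passed for neither.

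Both the most abundant members were lower in VM cells in every setting tried. MiR-467d-5p was 2.46-fold lower (a log2 fold change of -1.30 with an SE of 0.19, edgeR adjusted p = 0.00384) and miR-467a-5p 2.22-fold lower (a log2 fold change of -1.15 with an SE of 0.18, edgeR adjusted p = 0.00458). The remaining 11 calls were each lost when one or another library was left out. The count was 2 without neonatal VM replicate 2, where 11 of 280 miRNAs fell in all, and 8 without adult VM replicate 2, where 32 of 285 fell. It was 4 and 3 of 15 tested members without adult TN replicates 1 and 2, where 17 and 11 of 282 fell. MiR-669f-3p (-1.79), miR-669l-5p (-1.78), miR-466f-3p (-1.74) and miR-669c-5p (-1.67) had the largest log2 fold changes among them. MiR-669c-5p stood at 58.3 and 65.9 CPM in the adult TN libraries, 29.0 and 5.88 in the adult VM, 34.2 in the neonatal TN and 14.8 and 11.5 in the neonatal VM libraries (a log2 fold change of -1.67 with an SE of 0.46, edgeR adjusted p = 0.032). Its values in adult VM replicates 1 and 2 differed 4.93-fold. MiR-466f-3p, listed on 3 hairpins, stood at 37.8 and 43.7 CPM in the adult TN libraries, 10.1 and 5.19 in the adult VM, 13.1 in the neonatal TN and 11.9 and 5.75 in the neonatal VM libraries (a log2 fold change of -1.74 with an SE of 0.47, edgeR adjusted p = 0.031). Adult TN lay far above the other libraries, and the neonatal TN library stood near neonatal VM replicate 1. The other members that passed were miR-669a-5p (-1.51), miR-669d-5p (-1.50), miR-669p-5p (-1.49), miR-669o-5p (-1.40), miR-467b-5p (-1.16), miR-466h-3p (-1.11) and miR-467c-5p (-1.05), as log2 fold changes. Here too miR-669a-5p and miR-669p-5p are the same measurement.

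Within one age, where the neonatal comparison again has 1 TN library, 12 of the 21 members fell in adult VM cells and none rose, against 15.6% of all tested miRNAs, and within neonatal cells 3 fell and none rose, against 6.60%. The adult count was 3 and 2 of 15 without adult TN replicates 1 and 2, where the count over all miRNAs was also lower, 27 and 11 of 282 against 45 of 288. Those that fell in neonatal cells were miR-467d-5p (-1.30, edgeR adjusted p = 0.011), miR-467a-5p (-1.16, edgeR adjusted p = 0.0139) and miR-669o-5p (-1.82, edgeR adjusted p = 0.0402), as log2 fold changes. None of the 3 was called in every fit with a library left out, and the count ran from 0 (without adult TN replicate 2 or neonatal VM replicate 2) to 8 (without either adult VM library). Over all miRNAs 10 of 282 and 12 of 280 fell in the fits with 0, and 33 and 47 of 285 in those with 8. The smaller neonatal count does not show a smaller difference. In the test of the interaction itself, whether the subset difference depends on age, none of the 21 members passed in edgeR or in DESeq2, 1 had an unadjusted p under 0.05 in edgeR, and 7.99% of all tested miRNAs passed. Without adult VM replicate 1, the interaction log2 fold changes of miR-466g, miR-466f-3p and miR-669c-5p were 2.19, 2.34 and 2.02. Without adult VM replicate 2, that of miR-466d-3p was 2.17. These were the members past the threshold in those fits, which leave 1 adult VM library. In both fits a larger part of all tested miRNAs passed than with all libraries, and a larger part than of the members.

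**Figure D3:**
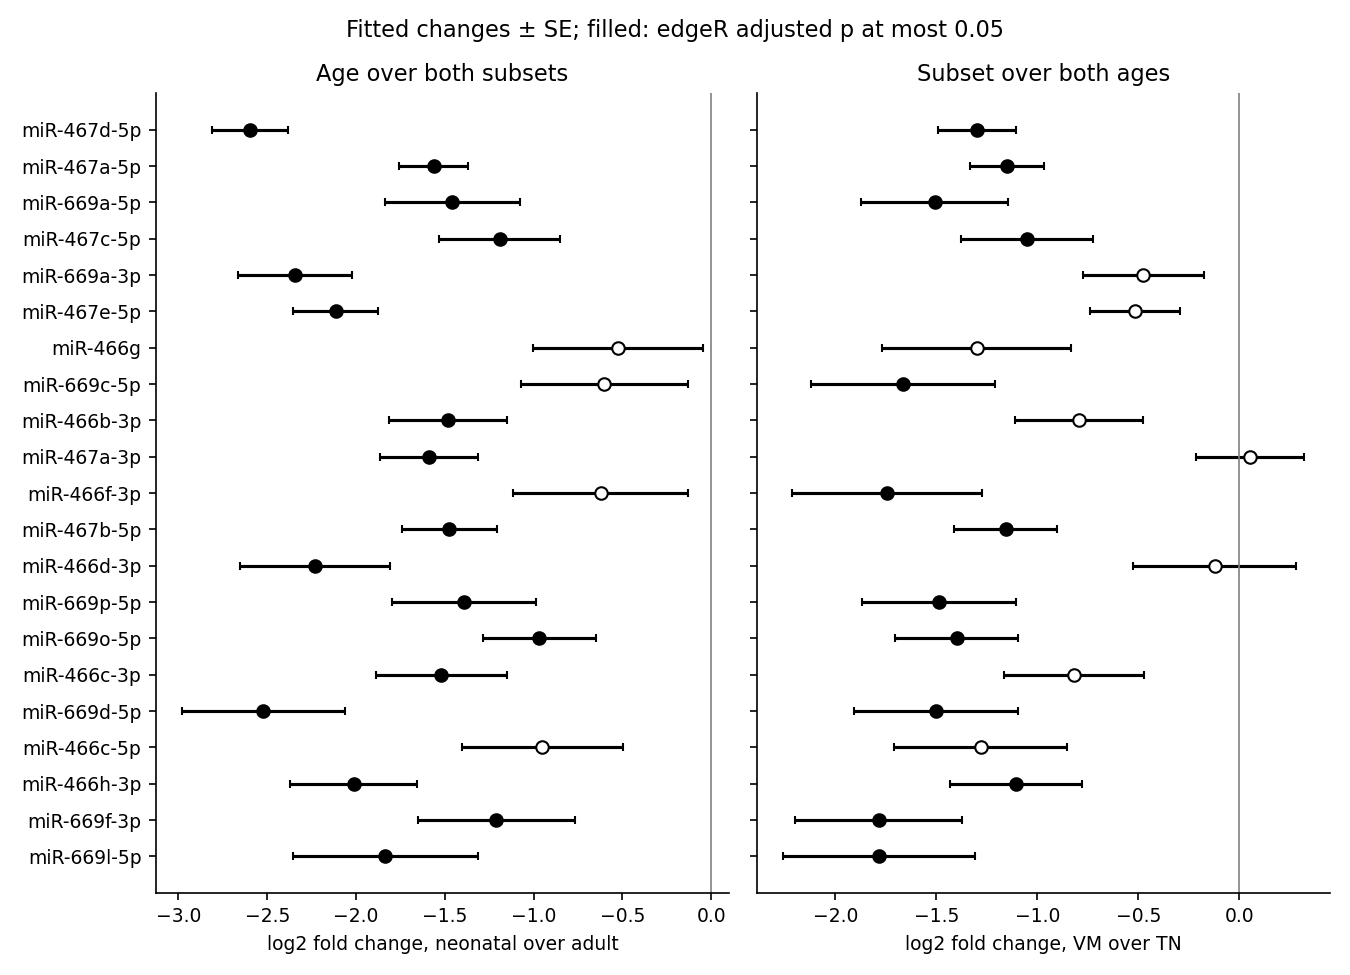
Fitted log2 fold changes of the 21 tested members with neonatal age (left) and in VM cells (right), with bars of ± 1 SE; filled points passed at an edgeR adjusted p of at most 0.05 and open points did not. All 21 age values lie below 0, the lowest for miR-467d-5p (-2.60), and for subset miR-467a-3p (0.05) is the only value above 0.

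The ratio of 5p to 3p counts could be tested for the 3 names with both arms tested, miR-467a, miR-669a and miR-466c. These are sums over several hairpins, not 1 hairpin: 10 for both arms of miR-467a, 12 and 11 for the 5p and 3p arms of miR-669a, and 3 for both arms of miR-466c. Some lines are identical to those of other names, as with miR-669p-5p, miR-669o-3p and miR-466b-3p. With 4 against 3 libraries none of the 6 tests, as run, could give a p below 0.05. MiR-467a gave 10.5 and 13.0 5p counts per 3p count in adult TN and 10.3 in neonatal TN, against 4.62 and 4.59 in adult VM and 4.86 and 5.62 in neonatal VM. Each VM library lay below each TN library, at both ages. The mean log2 ratio was 2.29 ± 0.14 in VM (SD, n = 4) and 3.49 ± 0.18 in TN (n = 3). A two-sided exact permutation test gave p = 0.0571, the smallest that the test as run can give here. Adjusted over the 6 arm tests it was 0.343. The 3p arm of miR-467a stood at 30.2 and 23.1 CPM in the adult TN libraries, 32.6 and 28.0 in the adult VM, 10.3 in the neonatal TN and 10.9 and 7.58 in the neonatal VM libraries. Its subset difference did not pass (log2 fold change 0.05, SE 0.27, edgeR adjusted p = 0.907), while that of the 5p arm did; the ratio is the test of the difference between the arms. MiR-467d had 232 and 275 5p counts per 3p count in adult TN, 95.5 and 72.8 in adult VM, 111 in neonatal TN and 41.5 and 54.4 in neonatal VM, from 2 to 8 3p counts per library. Those 3p counts are too few for a test. Between ages the log2 ratio of miR-467a-5p to miR-467a-3p differed by -0.16 (exact permutation p = 0.914).

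For miR-669a the 2 arms were nearer to one level. The ratio of 5p to 3p was 1.04 and 1.53 in adult TN, 1.26 and 0.480 in adult VM and 1.12 and 1.10 in neonatal VM. In the neonatal TN library it was 4.16, the highest of the 7, and in adult VM replicate 2 it was the lowest. With 1 neonatal TN library, that value has no replicate check, and the exact permutation tests of the log2 ratio gave p = 0.229 for subset and p = 0.457 for age. MiR-466c had 1.21 and 0.891 5p counts per 3p count in adult TN, 0.721 and 0.356 in adult VM, 0.973 in neonatal TN and 0.807 and 1.70 in neonatal VM, with VM and TN values and adult and neonatal values overlapping (exact permutation p = 0.571 for subset and p = 0.343 for age). In VM cells the 5p arm of miR-669a fell and the 3p arm did not pass (log2 fold change -0.48, edgeR adjusted p = 0.259). Among names that state an arm, the prevailing arm was 5p in miR-467 and 3p in miR-466 in every library. The miR-466 names with no arm, such as miR-466g, are large enough to matter. In the neonatal TN library they summed to 38.7 CPM, against 19.8 for 5p and 47.5 for 3p names. Summed per family, miR-467 gave 12.6 to 45.4 5p counts per 3p count, and miR-466 0.199 to 0.417, leaving out names with no arm.

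**Figure D4:**
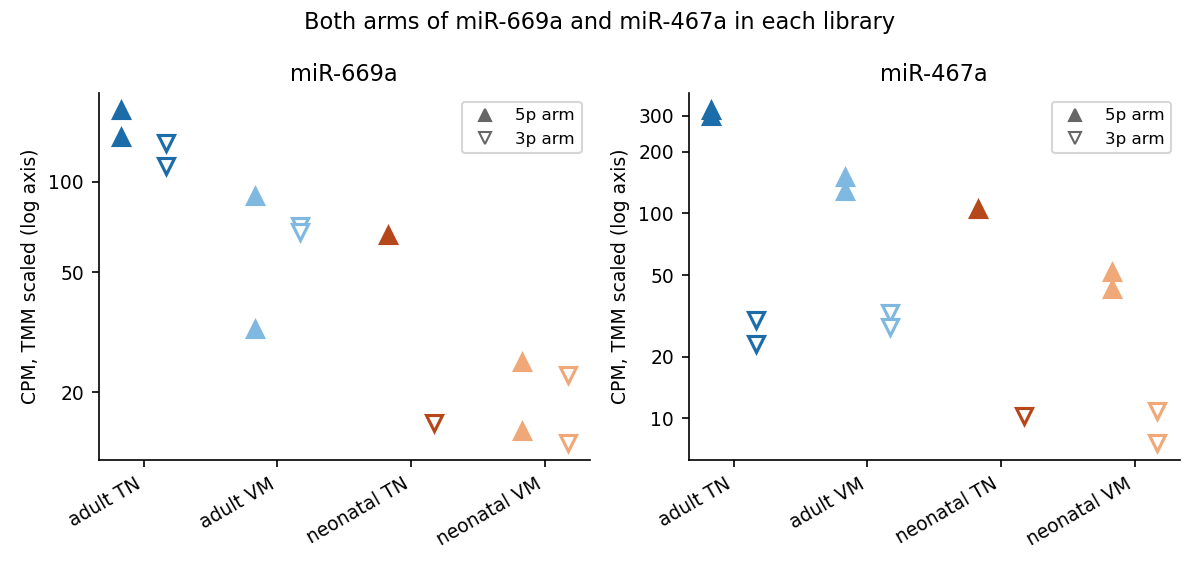
CPM (TMM scaled, log axes) of the 5p arm (filled) and 3p arm (open) of miR-669a and miR-467a in each library, by group. The 5p arm of miR-467a steps down from TN to VM at each age while its 3p arm lies between 23.1 and 32.6 CPM in all 4 adult libraries.

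Replicates of the VM groups differed in one direction for nearly all members. In adult VM cells replicate 1 was above replicate 2 for 20 of 21 members, with a median ratio of 1.52 against 1.02 over all tested miRNAs. In neonatal VM cells it was above for 20 of 21 as well, with a median ratio of 1.67 against 1.02. In adult TN cells it was above for 7 of 21, with a median ratio of 0.865 against 0.916. MiR-466d-3p was the exception in both VM groups. Differences of over 2-fold between replicates were found for 9 members in adult VM, 6 in neonatal VM and none in adult TN, against 15.3, 4.51 and 5.56% of all tested miRNAs. The 21 members share libraries and partly reads, and they are not 21 independent observations.

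Position in the cluster was examined for the 11 tested members made from 1 hairpin each. They lay from 0.566 kb (miR-669f) to 48.2 kb (miR-466h) from the start of the first hairpin. MiR-467e and miR-467d, 39.1 and 41.0 kb along, had the age changes -2.12 and -2.60, while miR-669c (-0.60), 42.6 kb along, and miR-466g (-0.53), 47.9 kb along, had the smallest. MiR-466g and miR-466h-3p, whose hairpins lie side by side (chr2:10514595-10514674 and chr2:10514891-10514971, plus strand), changed by -0.53 (SE 0.48) and -2.01 (SE 0.36) with age. That difference between them was not tested, and miR-466h-3p had 5 to 11 counts in the neonatal libraries. Spearman's rho of position with the log2 fold change was 0.10 for age and 0.30 for subset over the 11 members, a description across hairpins that share libraries.

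**Figure D5:**
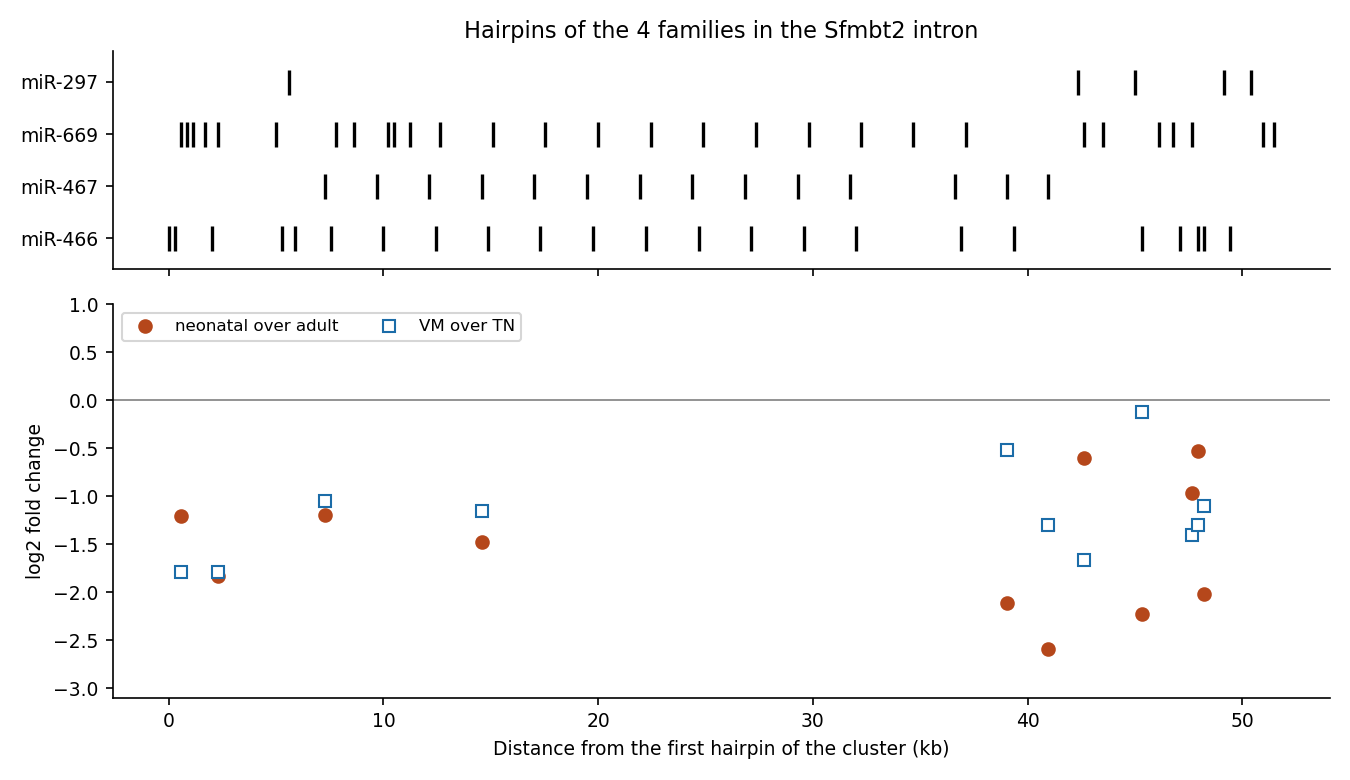
Top, start of each of the 71 matched hairpins in the Sfmbt2 intron by family, as distance in kb from the first; bottom, fitted log2 fold changes of the 11 tested members with 1 hairpin each. MiR-467, miR-466 and miR-669 hairpins alternate over most of the cluster, and no value lies above 0 at any position.

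For miRNAs of other imprinted regions few values were high enough to test. Of 92 arms listed for the Gnas, Mest, H19, Igf2, Snrpn and Dlk1-Dio3 regions, 3 were tested, all from Gnas. All 3 rose with neonatal age, as did 26.4% of all tested miRNAs. MiR-298-5p stood at 204 and 271 CPM in adult TN and 3363 in neonatal TN, 224 and 101 in adult VM, and 2749 and 2845 in neonatal VM, with no overlap between ages. Its log2 fold change with age was 3.99 (edgeR adjusted p = 2.72e-05), that of miR-296-3p 2.13 (edgeR adjusted p = 0.00245) and that of miR-296-5p 0.63 (edgeR adjusted p = 0.0455). None of the 3 passed by subset. Imprinting itself was not measured.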

How the data were processed

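Small RNA libraries (Illumina TruSeq, per the labels' protocols) of sorted CD8+ T cells were counted per mature arm and precursor. The authors deposited estimated counts with fractional values. Per the submitters' processing notes the build was mm10; aligner and counter are not given in the sources used here. Lines with one mature name were added up and the sums rounded to whole numbers. The 288 names with at least 10 CPM by library total in at least 2 of the 7 libraries were tested in edgeR 4.0.16 (R 4.3.3) with TMM factors, robust dispersions and the quasi-likelihood test. Benjamini-Hochberg adjustment at 0.05 was made over all 288 within each comparison. An additive model of age and subset gave the averages, and a model with 1 mean per group gave the 5 others. The method was tested on simulated data. CPM were scaled by TMM factors. Each SE is the absolute log2 fold change over the square root of F. Family sums had no test. Hairpins and Sfmbt2 exons were placed with GENCODE M21 on GRCm38, using RefSeq's gene names for matching. Members described by name were those past a test, the 5 most abundant, and the most abundant of each family. The members and lists were chosen with earlier results of these data known. Alternatives were RLE, upper quartile and library total scaling, no filter, filterByExpr, DESeq2 1.42.0, the largest line per name, the replicate number as a block and each library left out. Merging names with identical lines and the arm tests were added after seeing the data.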

Additional observations from a re-analysis of the deposited data

How the results depend on the processing

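No called member turned direction for age or subset in any alternative. Of the 17 members that fell with age, 12 were called in every fit in which they were tested, and of the 13 that fell in VM cells, 2 (miR-467d-5p and miR-467a-5p). Under library totals, which moved the median of all tested miRNAs by 0.45 with age, the count was 13 with age, where 53 of 288 miRNAs fell. It was 8 within TN by age, where 38 of 288 fell, and 7 within VM by age, where 49 of 288 fell. By subset within neonatal cells it was 1, where 14 of 288 fell, a similar share. The family sums then changed with age by -0.72 (miR-466), -1.52 (miR-467), -1.06 (miR-669), -0.97 (miR-297) and -1.25 (all 4 families) as mean log2 ratios, against -1.16, -1.95, -1.49, -1.40 and -1.68. For age in TN the count was 9 in DESeq2, where 57 of 288 miRNAs fell. It was 8 with the largest line per name, where 62 of 290 fell. For subset in neonatal cells the count was 1 with upper quartile factors, where 14 of 288 fell, again a similar share. With no filter it was 6, where 32 fell among all miRNAs then tested. With a library left out, the counts ran from 12 to 20 for age, 2 to 12 for subset, 6 to 20 for age in TN, 6 to 18 for age in VM, 2 to 17 for subset in adult cells, 0 to 8 for subset in neonatal cells and 0 to 3 for the interaction. The number of calls over all tested miRNAs also moved with a library left out, so these ranges do not describe the members alone. Fewer members are tested without an adult TN library. Otherwise the cause was not tested. Names merged where lines were identical gave 15 of 19 with age and 12 of 19 by subset, where 77 and 38 of 286 miRNAs fell in all. Deviations of same-numbered libraries were weakly correlated (r 0.02, 0.14 and -0.16 over 288 miRNAs). With at most 2 libraries per group, this cannot decide whether the numbers pair them. Among the members, replicate 1 was above replicate 2 for 20 of 21 in both VM groups. With the replicate number as a block the counts were 16 with age and 10 by subset, where 71 and 27 of 288 miRNAs fell in all. Merging by identical mature sequence was not run. Counts under about 10 in the neonatal libraries limit miR-669d-5p, miR-669l-5p, miR-669f-3p and miR-466h-3p.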
